A study of Caenorhabditis elegans with 24 samples.

Results

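The 6 genes described here, unc-18, unc-119, eyg-1, ZK938.3, cls-3 and T05A12.4, belong to a table of 21982 C. elegans genes measured by RNA sequencing of whole adult worms. They were picked on values of these same libraries, either for a difference between strains in animals that received no auxin or for a split among the wild type libraries, so those differences are given as a description, with no test. All 6 had a row in the table and passed the filter on low values, which asked for a normalized count of 10 in 4 or more libraries, and eyg-1 and ZK938.3 passed it through the RAGA-1::AID Somatic libraries alone. A normalized count is the number of reads of a gene divided by a size factor of its library. It is not corrected for gene length, so levels are compared between groups and not between genes.

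The study placed 3 strains with or without auxin, which gives 6 groups of 4 libraries. Both AID strains carry raga-1(wbm40), in which the endogenous gene for the Rag GTPase RAGA-1 is fused to an auxin-inducible degron and EmGFP. RAGA-1::AID Somatic also carries the transgene ieSi57 on chromosome II, in which the eft-3 promoter drives a TIR1::mRuby fusion ahead of the unc-54 3′UTR, together with Cbr-unc-119(+), the unc-119 gene of C. briggsae used as a transformation marker. Its TIR1 parent was made by 6 backcrosses to N2 of a strain that held unc-119(ed3) on chromosome III, and the genotypes given for the parent and for RAGA-1::AID Somatic do not list ed3. RAGA-1::AID Neuronal carries wbmIs83 on chromosome IV, in which the rab-3 promoter drives TIR1 with the rab-3 3′UTR. The wild type is N2 Bristol, with neither the degron nor TIR1. The auxin groups received 0.15 mM auxin from day 1 of adulthood, the other groups were kept on control plates, and all animals were harvested at day 3. Each TIR1 strain is 1 line, so what its background carries cannot be told apart from what the transgene does. In the auxin-inducible degron system, the plant F-box protein TIR1 binds auxin and marks a degron-tagged protein for destruction, so that the promoter of TIR1 sets the tissue of depletion.

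Among the 6, unc-18 and unc-119 are classical genes of the nervous system. UNC-18 is the Sec1/Munc18 protein that binds syntaxin and is needed for synaptic vesicles to fuse with the plasma membrane. UNC-119 is a carrier of lipid-modified proteins, and its gene is widely used to select transgenic worms because unc-119 mutants barely move. The gene eyg-1 is named after eyegone of Drosophila, which encodes a PAX family transcription factor, and cls-3 belongs to the CLASP genes, whose proteins bind and stabilize microtubules. The genes lie on 4 chromosomes of WBcel235 and all are protein coding. In the Ensembl annotation unc-18 is at X:7682896-7686037 on the plus strand, unc-119 at III:10902641-10908935 on the plus strand, cls-3 at III:9186558-9191109 on the minus strand and T05A12.4 at IV:6887948-6897783 on the plus strand. The genes eyg-1, at II:9826448-9827952, and ZK938.3, at II:9831521-9833955, are both on the minus strand and 3568 bp apart. The tagged gene raga-1 starts 1467404 bp beyond the end of ZK938.3 on the same chromosome.

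Library depth was 16982857 to 41671106 recovered reads. The tagged gene raga-1 averaged 1494 ± 93.7 normalized counts in Somatic auxin, 1687 ± 44.7 in Somatic no auxin, 1617 ± 48.1 in Neuronal auxin, 1675 ± 54.9 in Neuronal no auxin, 2842 ± 66.6 in wild type auxin and 2838 ± 174 in wild type no auxin (SD, n = 4 each). Every AID library, with auxin or without, stood below every wild type library. RNA levels do not measure the depletion of the protein. The wild type libraries numbered 1, 1 with auxin and 1 without, stood apart from the other 6 wild type libraries for cls-3 and T05A12.4, and the ratios of the 6 genes to wild type in the auxin libraries are given with and without them, while those of other genes are given with them. Markers of neurons, intestine, muscle, epidermis, germline and embryos were all detected in every group, while the 4 sperm markers summed to at most 18.2 normalized counts in a library. In whole animals, fewer cells of a type and less RNA per cell cannot be told apart.

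**Figure D1:**
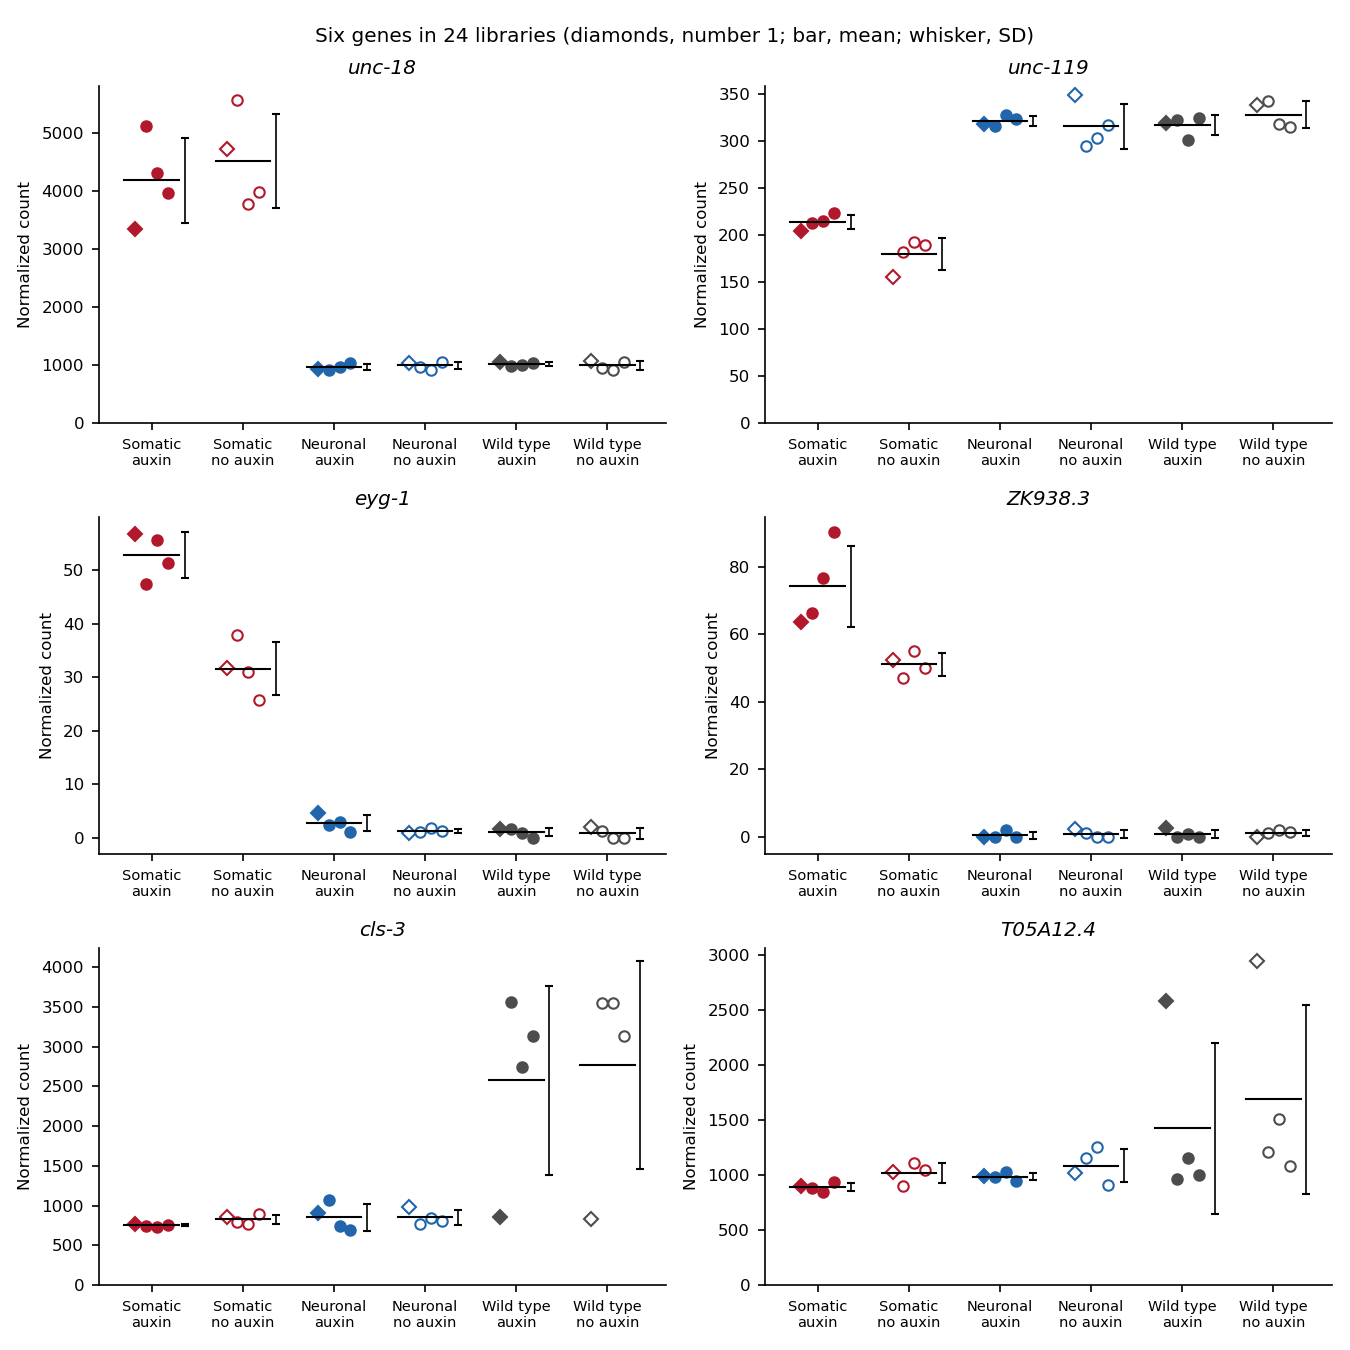
Normalized counts (y axes, linear and starting at or just below 0) of the 6 genes in each of the 24 libraries, grouped by strain and treatment on the x axes. Filled points are auxin libraries, open points no auxin libraries, diamonds the libraries numbered 1, bars group means and whiskers SD. The 8 Somatic libraries of unc-18 sit between 3350 and 5583, above the other 16, and the 2 wild type diamonds leave the other wild type points in cls-3 and T05A12.4.

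The level of unc-18 was about 4-fold higher in the Somatic strain than in both other strains, with auxin and without. With auxin, the 4 Somatic libraries held 3350, 5120, 4308 and 3976 normalized counts, the 4 Neuronal libraries 929, 914, 973 and 1037, and the 4 wild type libraries 1049, 979, 1000.2 and 1042. Every Somatic library stood far above every library of the other strains. Without auxin, where the gene was picked, the values were 4731, 5583, 3783 and 3986 in Somatic libraries, 1037, 969.7, 920.2 and 1046 in Neuronal libraries and 1072, 942, 922.3 and 1060.4 in wild type libraries. The Neuronal and wild type groups overlapped one another throughout, and their 4 group means, from 963 to 1017, followed one another with ratios of at most 1.03.

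In the auxin libraries the fitted log2 ratio of unc-18 was 2.02 ± 0.11 for Somatic against wild type (SE, adjusted p = 6.33e-12, limma with Benjamini-Hochberg adjustment over 13150 genes), a fold of 4.07 with a 95% interval of 3.49 to 4.74. Without both wild type libraries numbered 1, the log2 ratio was 2.04 (adjusted p = 2.55e-10). Somatic against Neuronal gave 2.10 ± 0.11 (adjusted p = 1.01e-11 in the same limma fit). Neuronal against wild type gave -0.08, with a 95% interval of -0.30 to 0.14 and an adjusted p of 0.744, so this comparison did not pass the threshold of 0.01 (-0.06 without both wild type libraries numbered 1).

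The Somatic libraries also varied more in unc-18 than the others did. The coefficient of variation was 17.6% in Somatic auxin and 18.1% in Somatic no auxin, against medians of 3.46% and 3.10% over the 2297 and 2256 tested genes whose mean in the same group lay within 2-fold of unc-18. In wild type auxin the coefficient of variation of unc-18 was 3.30%, and in wild type no auxin 7.81%. The fit shares its estimate of the spread over all libraries, so the SE and interval of unc-18 do not reflect this difference. The library numbered 2 was the highest of the Somatic libraries in both treatments.

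The other genes of vesicle release had smaller differences, with log2 ratios from -0.23 to 0.62 in Somatic auxin against wild type auxin. Of 13 further genes of the list, all tested, 3 were higher and 2 lower in Somatic auxin than in wild type auxin, where 34.3% of all tested genes were called. The syntaxin gene unc-64 averaged 488 ± 71.8 normalized counts in Somatic auxin and 315 ± 24 in wild type auxin (log2 ratio 0.62, adjusted p = 8.6e-05). The priming factor gene unc-13 averaged 326 ± 15.8 and 228 ± 16.4 in the same order of groups (log2 ratio 0.52), and the L-type calcium channel gene egl-19 369 ± 14.4 and 262 ± 23 (log2 ratio 0.50). The lower genes were nsf-1, which encodes the ATPase that takes SNARE complexes apart, at a log2 ratio of -0.11, and the synaptobrevin gene snb-1, at -0.09, and neither was called under trimmed-mean or quantile scaling. Nearest to a call among the rest were cpx-1, the complexin gene, at 0.46 (adjusted p = 0.0102), and ric-4, the SNAP-25 gene, at 0.41 (adjusted p = 0.0334). The median log2 ratio of the 13 genes was 0.32, beside 0.01 over all tested genes. Neuronal auxin against wild type auxin called none of the 13 (limma), where 1.19% of all genes were called, 156 in number with the wild type libraries numbered 1 and 67 without both of them.

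The 3 other Sec1/Munc18 genes on the list serve membrane fusion at endosomes and lysosomes. In Somatic auxin against wild type auxin, 34.3% of all tested genes were called and 2541 of 13150 were lower. All 3 of these Sec1/Munc18 genes were lower there. Their averages were 521 ± 54.2 and 638 ± 10.9 normalized counts for vps-45 (log2 ratio -0.30, adjusted p = 0.000344), 1746 ± 26.8 and 1980 ± 52.4 for vps-33.1 (-0.18, adjusted p = 2.51e-05), and 2207 ± 42.7 and 2420 ± 43.9 for vps-33.2 (-0.13, adjusted p = 0.00498). The call of vps-33.2 was lost under both other scalings.

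Neuron markers were higher in sum in the Somatic strain with auxin. The 9 markers, of which rab-3, snb-1 and unc-64 are also on the vesicle list, summed to 7399 to 7868 normalized counts in Somatic auxin libraries and to 6435 to 6716 in wild type auxin libraries, with 3 of the 9 called higher and 1 lower, where 34.3% of all tested genes were called. Without auxin the sums were 6383 to 6748 in Somatic libraries and 6483 to 6693 in wild type libraries. The ranges overlapped there. Other tissues differed as well between Somatic auxin and wild type auxin. The 3 pharyngeal muscle markers summed to 1879 to 2164 in Somatic auxin and 965 to 1299 in wild type auxin. The 4 body wall muscle markers summed to 30919 to 32936 in Somatic auxin and 20439 to 25243 in wild type auxin. The 5 intestine markers summed to 2.66e+06 to 2.90e+06 in Somatic auxin and 1.27e+06 to 1.54e+06 in wild type auxin. The 6 markers of germline and oocytes were lower in sum, at 118847 to 127386 in Somatic auxin and 137291 to 140304 in wild type auxin, as were the 4 of epidermis (2890 to 3213 and 3511 to 3675) and the 3 of embryos (35649 to 38592 and 40678 to 41452). These sums do not speak for each marker. In the same comparison, 1 of the 3 tested epidermis markers was called higher and 1 lower, with a median log2 ratio of 0.26. Of the 4 body wall muscle markers, 3 were called higher and 1 lower, again where 34.3% of all tested genes were called. The part of these tissue differences in the values of the 6 genes was not tested.

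The level of unc-119 was lower in the Somatic strain. With auxin it was 204, 213, 216 and 223 normalized counts in Somatic libraries, 319, 317, 328 and 324 in Neuronal libraries, and 319, 323, 301 and 325 in wild type libraries. No Somatic library reached the lowest library of another strain. Without auxin, where the gene was picked, it averaged 180 ± 16.7 in Somatic, 316 ± 23.9 in Neuronal and 328 ± 14.2 in wild type libraries (SD, n = 4 each). The 4 Neuronal and wild type groups overlapped one another in the order of their means.

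With auxin the log2 ratio of unc-119 was -0.57 ± 0.07 for Somatic against wild type (SE, adjusted p = 5.39e-07, limma), a fold of 0.675 with a 95% interval of 0.615 to 0.742. It was -0.59 ± 0.07 against Neuronal (adjusted p = 8.36e-07). Neuronal against wild type gave 0.02, with an interval of -0.11 to 0.16 (adjusted p = 0.902). Without both wild type libraries numbered 1 these ratios to wild type were -0.56 (adjusted p = 6.1e-06) and 0.03 (adjusted p = 0.902). The reads of the C. briggsae copy in the Somatic strain were not counted apart from those of unc-119, and their part in the value was not tested. Of 5 partner genes in the traffic of lipid-modified proteins (arl-3, arl-13, evl-20, pdl-1 and rpi-2), none was called in Somatic auxin against wild type auxin by limma, where 34.3% of all tested genes were, and arl-13 (log2 ratio -0.82, adjusted p = 0.0269) and pdl-1 (0.88, adjusted p = 0.0382) came nearest to the threshold. These 5 ratios had a median of 0.32. With quantile scaling arl-13 passed, at -1.14 (adjusted p = 0.00345).

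**Figure D2:**
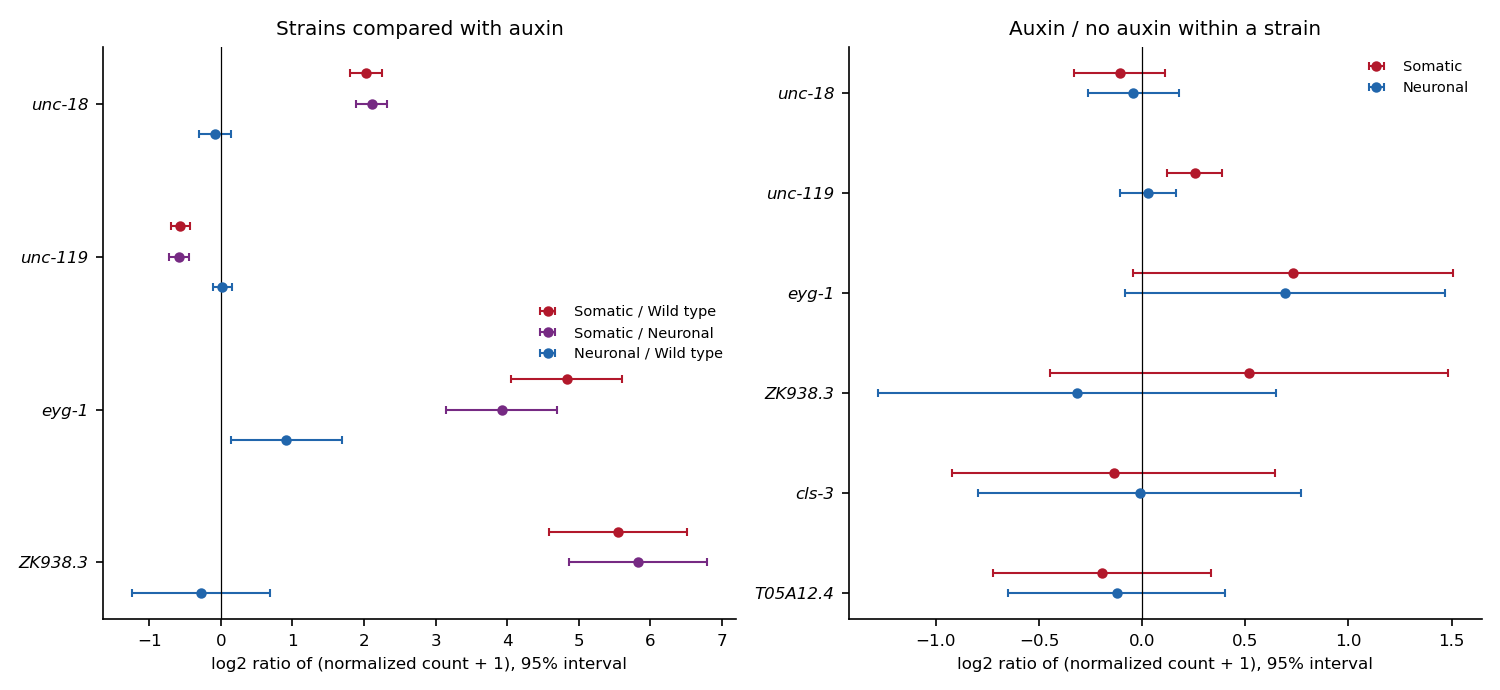
Fitted log2 ratios of (normalized count + 1) with 95% intervals from limma, on the left between strains in the auxin libraries for the 4 genes picked on the difference without auxin, on the right for auxin against no auxin within each AID strain for all 6 genes. The intervals of Somatic against wild type and against Neuronal lie off 0 for the 4 genes on the left, and on the right, where the no auxin libraries that picked the genes are used again, that of unc-119 in the Somatic strain alone does. Those of eyg-1 and ZK938.3, which passed the filter through Somatic libraries alone, are a description.

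The neighbours eyg-1 and ZK938.3 were read in the Somatic strain and at or near 0 elsewhere. With auxin, eyg-1 had 56.8, 47.4, 55.7 and 51.3 normalized counts in Somatic libraries, against 4.62, 2.45, 2.96 and 1.07 in Neuronal libraries and 1.69, 1.55, 0.828 and 0 in wild type libraries. Without auxin it had 31.8, 37.8, 31.1 and 25.7 in Somatic libraries, 0.801 to 1.74 in Neuronal libraries and 0 to 2.08 in wild type libraries. With auxin, ZK938.3 had 63.8, 66.4, 76.7 and 90.1 in Somatic libraries, against 0 to 1.97 in Neuronal libraries and 0 to 2.54 in wild type libraries. For both genes the Somatic libraries therefore stood above every other library by more than the spread within each Somatic group, and the Neuronal and wild type groups overlapped.

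Because the other strains gave so few reads, the ratio of summed reads per unit of depth is the plainer measure. In the auxin libraries, eyg-1 had 182 reads in Somatic and 5 in wild type, a ratio of 51.8 with an exact 95% interval of 21.8 to 162 that covers counting error only. ZK938.3 had 251 reads in Somatic and 4 in wild type, a ratio of 89.3 (34.5 to 330.5). Against the 12 reads of eyg-1 in Neuronal auxin the ratio was 18.9 (10.6 to 37.3), and against the 2 reads of ZK938.3 it was 157 (42.9 to 1300.5). On the log2 scale with a pseudocount of 1, Somatic against wild type gave 4.83 ± 0.37 for eyg-1 and 5.55 ± 0.47 for ZK938.3 (SE), given as a description, since both genes passed the filter through Somatic libraries alone. Such a fitted value depends on the pseudocount and is smaller than the ratio of reads. With the wild type libraries numbered 1 left out, the values were 5.01 and 5.93.

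In the whole comparison of Somatic auxin with wild type auxin, unc-18 was called higher and unc-119 lower, where 34.3% of all tested genes were called. Both were also called in Somatic auxin against Neuronal auxin, where 23.2% were. These auxin libraries are not those on which the genes were picked, but they come from the same strains. In Neuronal auxin against wild type auxin neither unc-18 nor unc-119 was called (limma, edgeR or DESeq2), where 1.19% of all genes were by limma. There eyg-1 had 12 and 5 reads and ZK938.3 had 2 and 4. Both passed the filter through Somatic libraries alone, so their log2 ratios of 0.91 and -0.28 are a description. Without both wild type libraries numbered 1, the ratio of eyg-1 was 1.09 and that of ZK938.3 was 0.10.

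The other PAX and paired-domain genes gave few reads in these adults, and 3 of 8 passed the filter. Of these, 2 were higher in Somatic auxin than in wild type auxin, where 34.3% of all tested genes were called. The averages were 21.5 ± 4.72 and 3.72 ± 1.99 normalized counts for pax-3 (log2 ratio 2.31, adjusted p = 5.55e-05, limma) and 80.2 ± 21.1 and 45.4 ± 7.47 for vab-3, the C. elegans Pax6 gene (log2 ratio 0.78, adjusted p = 0.00123, lost under quantile scaling). The remaining gene was npax-4, at a log2 ratio of 0.74 (adjusted p = 0.17). The median of the 3 was 0.78. Both pax-3 and vab-3 were also higher in Somatic auxin than in Somatic no auxin, where 35.6% of all tested genes were called. Without auxin, the median log2 ratio of Somatic to wild type over the 3 was -0.41.

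The genes nearest to eyg-1 and ZK938.3 gave few reads, except for arrd-4. ZK938.1, which lies between them on the opposite strand, had 13 reads in Somatic auxin, 9 in Somatic no auxin, 0 in Neuronal auxin, 1 in Neuronal no auxin, 3 in wild type auxin and 0 in wild type no auxin. Its neighbour ZK938.12 had 3 reads in all, 2 of them in Somatic auxin and 1 in Somatic no auxin. On the far side of ZK938.3, arrd-5, an arrestin domain gene, had 16 and 9 reads in Somatic auxin and Somatic no auxin, against 3 to 7 in each of the other groups. None of these 3 passed the filter. Before eyg-1 lie the cytochrome P450 genes cyp-13A7, which was tested and not called (log2 ratio 0.44, adjusted p = 0.556), and cyp-13A8, with 8 to 16 reads a group. The next gene, arrd-4, averaged 80.6 in Somatic auxin and 42.9 in wild type auxin (log2 ratio 0.90, adjusted p = 6.59e-06), and its means without auxin were 45.8 in Somatic and 36.3 in wild type.

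Some genes beside unc-18 were also higher in the Somatic strain with auxin. Of its 4 nearest genes, F27D9.2 (log2 ratio 0.87), clik-2 (0.78) and kvs-1, a potassium channel gene (0.76), were higher in Somatic auxin than in wild type auxin, and stn-2 was not called (-0.07). F27D9.2 and kvs-1 lost the call with quantile scaling. Without auxin the means of kvs-1 were 35.9 in Somatic and 39.4 in wild type libraries, those of clik-2 were 188 in both, and those of F27D9.2 were 72.4 in Somatic and 49.4 in wild type. Beside unc-119, fbxb-87, com-1 and cut-6 were tested and none was called, with log2 ratios from -0.05 to 0.54, while vab-7, with 5 to 21 reads a group, was too low to be tested. Beside T05A12.4, tre-2, a trehalase gene, was higher (0.33), T22D1.5 was lower (-0.33) and T05A12.3 was not called (0.12), while T22D1.8 was too low to be tested. In all, 12 of the 22 nearest genes could be tested, of which 5 were higher and 1 was lower, beside 34.3% called of all tested genes.

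**Figure D3:**
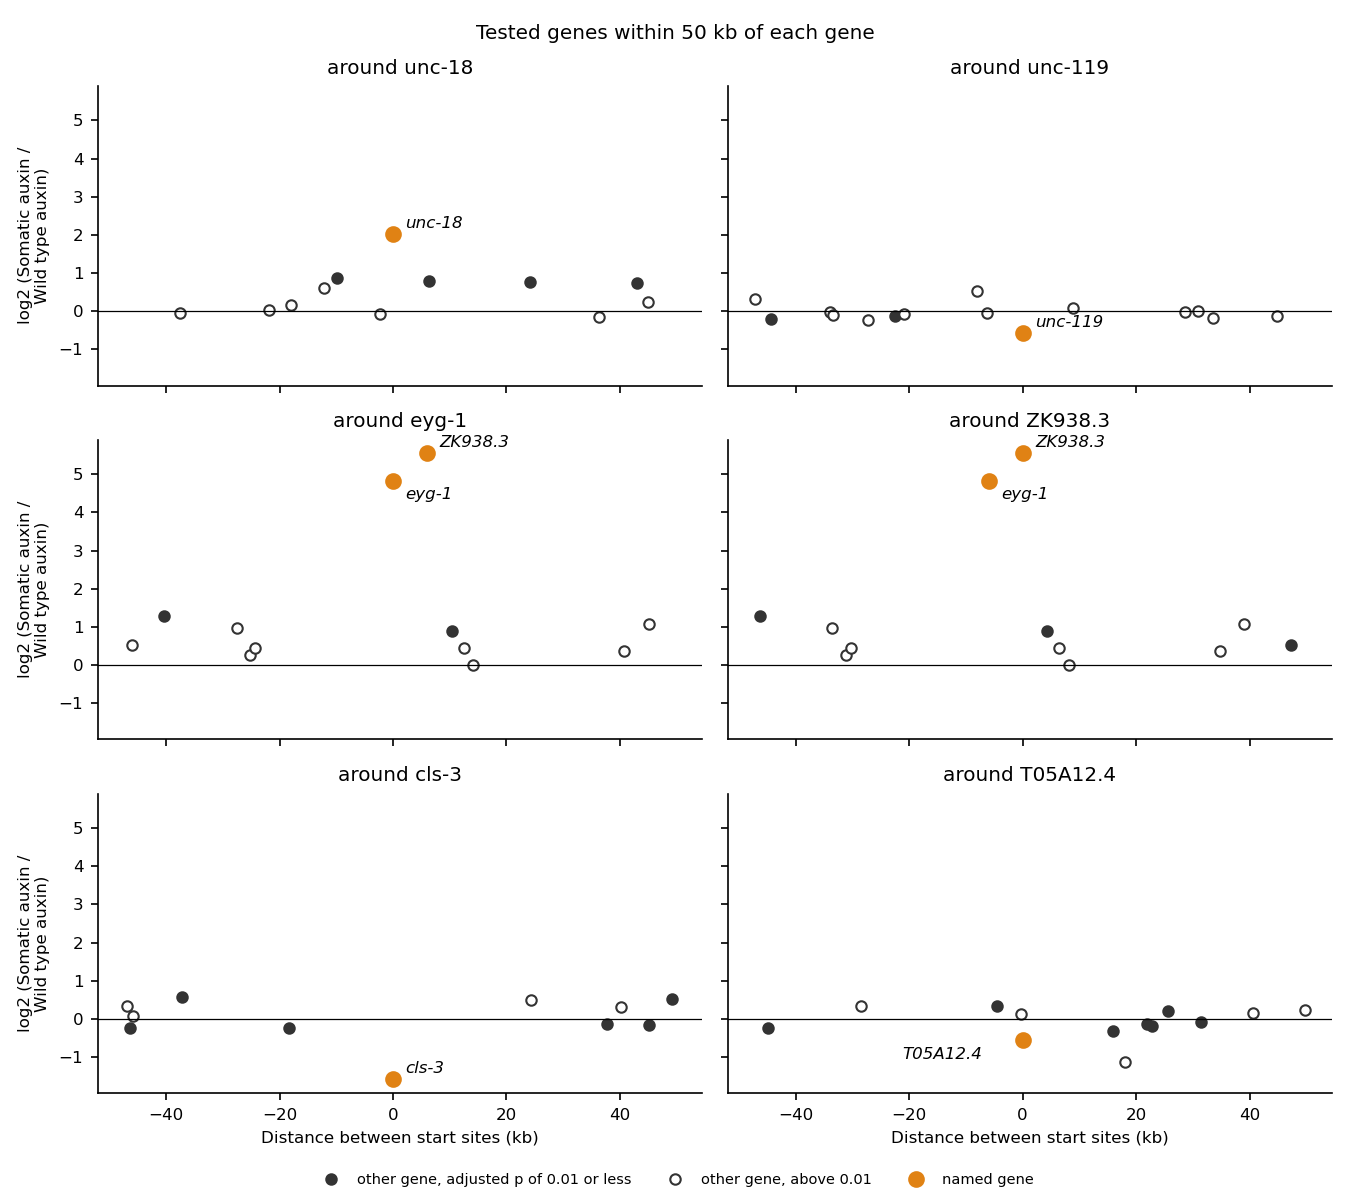
Log2 ratio of Somatic auxin to wild type auxin (y axes) for every tested gene within 50 kb of each of the 6 genes, by the distance between start sites in kb (x axes). Orange points are the 6 genes, filled dark points other genes with an adjusted p of 0.01 or less and open points the rest. Of 58 other genes in these windows, 11 were higher and 11 lower, beside 34.3% called of all tested genes, with log2 ratios from -1.14 to 1.30, while unc-18, eyg-1 and ZK938.3 lie above 2.

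The wild type libraries split for cls-3 and T05A12.4. Both may have been picked for this, so their contrasts with wild type are a description. In wild type auxin, cls-3 had 852 normalized counts in the library numbered 1 and 3559, 2745 and 3138 in those numbered 2, 3 and 4. In wild type no auxin it had 826 in the library numbered 1 and 3549, 3545 and 3138 in the others. The 8 Somatic libraries lay between 735 and 896 and the 8 Neuronal libraries between 698 and 1070. The 18 libraries of both AID strains and of wild type number 1 thus formed a group whose highest value, 1070, was 2.56-fold below the lowest of the 6 other wild type libraries.

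The ratio of cls-3 between strains moved with those libraries. The Somatic auxin mean was 0.292 of the mean of all 4 wild type auxin libraries, 0.239 of the mean of those numbered 2 to 4, and 0.881 of the library numbered 1. The Neuronal auxin mean was 0.332, 0.271 and 1.0 of the same 3 values. In wild type auxin the coefficient of variation of cls-3 was 46.4%, beside a median of 2.90% over tested genes within 2-fold of its mean. It was 1.68% in Somatic auxin and 19.8% in Neuronal auxin, where the libraries held 904, 1070, 745 and 698.

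Wild type number 1 stood apart in the other direction for T05A12.4. It had 2588 normalized counts in wild type auxin, with 961, 1154 and 1002 in the libraries numbered 2, 3 and 4, and 2952 in wild type no auxin, with 1213, 1508 and 1082 in the others. The Somatic libraries lay between 842 and 1111 and the Neuronal libraries between 912 and 1254. The 2 libraries numbered 1 were at least 1.72-fold above all 22 others. The Somatic auxin mean was 0.624 of the mean of all 4 wild type auxin libraries and 0.857 of that of libraries 2 to 4. Neuronal auxin gave 0.692 and 0.95. Setting the 2 genes against each other, the wild type libraries numbered 1 had the low level of cls-3 seen in the AID strains and a level of T05A12.4 seen in no other library.

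**Figure D4:**
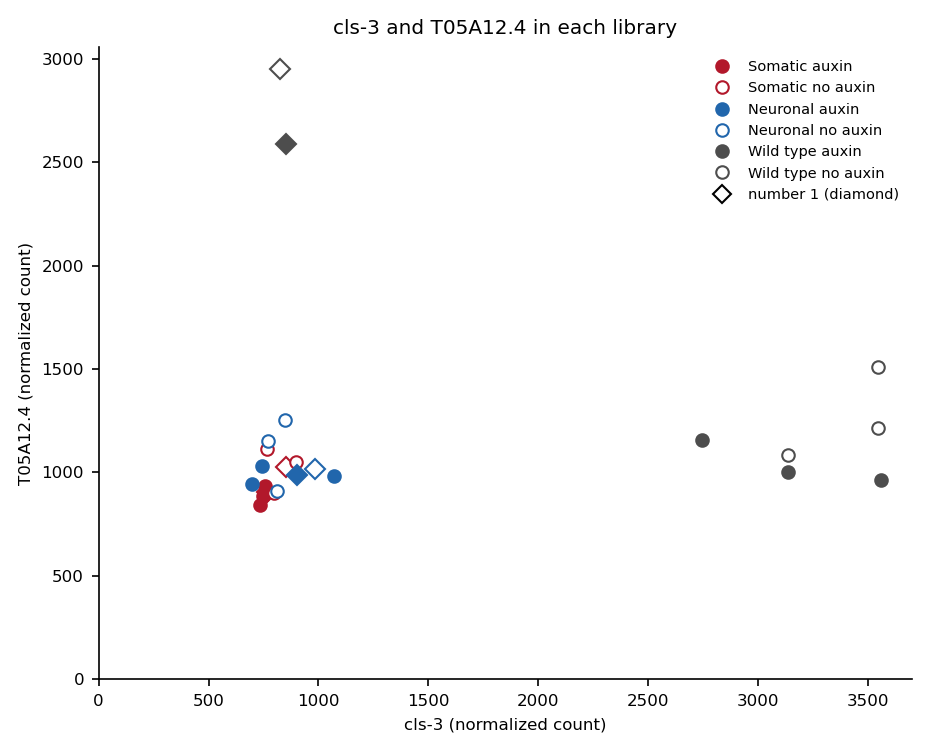
Normalized counts of cls-3 (x axis) and T05A12.4 (y axis) in each of the 24 libraries, with both axes from 0. Filled points are auxin libraries, open points no auxin libraries and diamonds the libraries numbered 1. The 16 AID libraries share 1 corner, the 6 wild type libraries numbered 2 to 4 lie to the right between 2745 and 3559, and the 2 numbered 1 lie at the top left.

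Between the AID strains, neither gene passed the test. Somatic auxin against Neuronal auxin gave a log2 ratio of -0.17 for cls-3, with a 95% interval of -0.95 to 0.62 (adjusted p = 0.763, limma), and -0.15 for T05A12.4, with an interval of -0.68 to 0.38 (adjusted p = 0.681). The libraries of T05A12.4 held 842 to 933 normalized counts in Somatic auxin and 946 to 1033 in Neuronal auxin. Those of cls-3 held 735 to 764 and 698 to 1070. The shared estimate of the spread takes in the wild type split. With both wild type libraries numbered 1 left out, the adjusted p-values were 0.236 and 0.241.

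The gene ZC84.7 covers cls-3 on the other strand (III:9186022-9192984, plus strand). Its reads, too few to pass the filter, ran the same way. It had 2.54 normalized counts in wild type auxin number 1 against 7.74, 7.45 and 15.2 in numbers 2 to 4. In wild type no auxin it had 3.12 in number 1 against 13, 10.5 and 4.78. The libraries numbered 1 held 3 reads each and the other wild type libraries 6 to 18, with the 6 in wild type no auxin number 4. The 16 AID libraries had 0 to 2.40 normalized counts. The libraries were made to keep strand, but the sources used here do not state the strand options of the quantification, so a small share of cls-3 reads counted on the wrong strand cannot be told apart from transcripts of ZC84.7. The other 3 neighbours of cls-3 (tax-4, ZC84.6 and ZC84.1) were too low to be tested.

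Of 7 other CLASP and microtubule plus-end genes, 2 were lower in Somatic auxin than in wild type auxin and none was higher, where 34.3% of all tested genes were called. These were klp-7, the kinesin-13 gene, with 4860 ± 122 and 5546 ± 132 normalized counts (log2 ratio -0.19, adjusted p = 1.81e-05, limma), and cls-2, with 2524 ± 99.8 and 2758 ± 66.1 (log2 ratio -0.13, adjusted p = 0.00759, lost under both other scalings). Another CLASP gene, cls-1, had 630 ± 44.1 and 556 ± 60.8 (log2 ratio 0.18, adjusted p = 0.117). The median over the 7 genes was -0.07.

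Within a strain, auxin against no auxin reuses the no auxin libraries on which the genes were picked, so these values are a description. In the Somatic strain, unc-119 had 204 to 223 normalized counts with auxin, against 156, 182, 192 and 189 without, a log2 ratio of 0.25 ± 0.07 (SE). The ratio was 0.01 with quantile scaling and 0.19 without Somatic no auxin replicate 1, the lowest of its group. It was the only one of the 6 genes past the threshold of the fit, where 35.6% of all tested genes were, and nothing is read from that count.

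In the Somatic strain, eyg-1 had 47.4 to 56.8 normalized counts with auxin and 25.7 to 37.8 without. ZK938.3 had 63.8 to 90.1 with auxin and 47.1 to 55.0 without. Their log2 ratios were 0.73 (95% interval -0.04 to 1.51) and 0.52 (-0.45 to 1.48), with a spread that comes from all 24 libraries, those near 0 included. For unc-18, cls-3 and T05A12.4 the log2 ratios of auxin against no auxin in the Somatic strain were -0.11, -0.14 and -0.19. The Somatic libraries of cls-3 held 735 to 764 with auxin and 766 to 896 without.

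In the Neuronal strain unc-18, unc-119, cls-3 and T05A12.4 did not pass the threshold in auxin against no auxin (limma, edgeR or DESeq2), where 0.441% of all genes did by limma. For cls-3 and T05A12.4 the shared estimate of the spread takes in the wild type split. The log2 ratio of eyg-1, at 12 and 6 reads, was 0.69 (95% interval -0.08 to 1.47). That of ZK938.3, at 2 and 4 reads, was -0.32. Both are a description, since these genes passed the filter through Somatic libraries alone. In wild type, auxin against no auxin called 0 of 13150 genes in all (0%, limma, and 0 by edgeR and by DESeq2 as well), with 303 at an unadjusted p under 0.05 and neither unc-18 nor unc-119 among them.

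The difference of the auxin responses holds the no auxin values on which unc-18, unc-119, eyg-1 and ZK938.3 were picked, and is given as a description too. In Somatic minus wild type neither unc-18 nor unc-119 passed the threshold (limma, edgeR or DESeq2), where 16.8% of all genes did by limma. The value of unc-119 was 0.30 ± 0.09 on the log2 scale (SE), or 0.29 without both wild type libraries numbered 1. That of ZK938.3, at 4 reads in wild type auxin and 5 in wild type no auxin, was 0.90 with these libraries and 1.63 without them. In Neuronal minus wild type unc-18 (-0.07) and unc-119 (0.08) did not pass either, where 0.0152% of all genes did. The value of eyg-1 there was 0.49, at 12 and 6 reads in Neuronal auxin and no auxin and 5 and 3 in wild type.

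The genes whose log2 levels ran most like those of the 6 over the 24 libraries include others of the 6 for unc-18, eyg-1 and ZK938.3 alone. For unc-18 they were ZK938.3 (r = 0.96), eyg-1 (0.94) and W01D2.1 (0.84), and the most opposed of all tested genes was unc-119 (r = -0.95). For eyg-1 and ZK938.3 they were each other (0.91), unc-18 and, after these, T16G12.3 for eyg-1 (0.84) and col-8, a collagen gene, for ZK938.3 (0.84). For unc-119 they were phat-8 (0.91), F41G3.10 (0.89) and nspc-4 (0.82), each lower in all 8 Somatic libraries than in all 16 others. These points fall into strains, so the coefficients mainly restate the gap between the Somatic strain and the rest.

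For cls-3 the likest genes over the 24 libraries were casc-3 (r = 0.90), raga-1 (0.83) and T04D3.5 (0.78). The level of casc-3 was 1208 to 1486 in the AID libraries, 1310 and 1498 in wild type number 1 and 1665 to 1867 in wild type numbers 2 to 4. T04D3.5 had 1290 to 1770, then 1443 and 1600.0, then 1776 to 2379 in the same 3 sets. Both lie on chromosome I, 2492 bp apart, at 13333440-13336146 and 13329174-13330947. By contrast, raga-1 was as high in wild type number 1 (2708 and 2777) as in wild type numbers 2 to 4 (2673 to 3025). Over the 8 wild type libraries alone, the likest genes were lin-54, T03D3.5 and fndc-1 (r = 0.98, 0.98 and 0.97).

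For T05A12.4 the likest genes over the 24 libraries were K10B3.5 (r = 0.75), nhr-19, a nuclear hormone receptor gene (0.73), and snt-2, a synaptotagmin gene (0.72). K10B3.5 had 595 and 639 normalized counts in wild type number 1, against 404 to 509 in wild type numbers 2 to 4 and 267 to 467 in the AID libraries. For nhr-19 these were 94.5 and 99.9, against 58.0 to 74.0 and 35.1 to 75.3. Over the 8 wild type libraries they were C10C6.7, lsm-8 and col-96 (r = 0.98, 0.98 and 0.97), and the r of T05A12.4 with cls-3 was -0.93 there and 0.06 over all 24. Within wild type, the coefficients of cls-3 and T05A12.4 mainly restate the split between number 1 and numbers 2 to 4. Both genes may have been picked for that split.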

How the data were processed

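Whole-animal poly(A) RNA of 24 libraries was analysed. The authors used Salmon 1.4.0 on WBcel235 transcripts, gene sums by tximport and size factors of DESeq2 1.34.0. Each deposited value is a signal, the counts of a gene over the size factor of the library. In all libraries 100% of values were whole multiples of 1 read within 0.01, from which whole reads were recovered. The step of 1 library (Somatic auxin replicate 1) lies too near 1 for this to be a test. Per the methods, replicates came from separate days and thaws.

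limma 3.58.1 (R 4.3.3) with an intensity trend was fitted to log2 values with a pseudocount of 1 and a mean for each of 6 groups over all libraries, for the 13150 genes that reached 10 normalized counts in 4 libraries. The threshold was an adjusted p of 0.01 (Benjamini-Hochberg). Tests of the recovered reads in edgeR 4.0.16 (quasi-likelihood) or DESeq2 1.42.0 were alternatives, beside other pseudocounts, filters, scalings and library sets. The fit was tested on simulated data. Intervals on reads are exact (Clopper-Pearson). Genes were named and placed by Ensembl 115, with 19793 IDs matched to symbols. Figures used Python 3.11.15 and matplotlib 3.10.9.

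The 6 genes, the gene lists and the tests were chosen with earlier results of these data known. Named beside them are the 2 nearest genes on each side that have a row in the table, the 3 tested genes of highest correlation, genes whose sequences the transgenes use, and of each list every called gene and up to 4 others by adjusted p. The opposed gene of unc-18 and the genes named by a split of wild type were singled out after their values were seen.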

Additional observations from a re-analysis of the deposited data

Results flagged for a closer look

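In 3 of the 36 groups of 4 libraries (6 genes in 6 groups), 1 library lay farther from the other 3 than Dixon's 95% critical value allows, and chance sets about 1 in 20 such groups apart. cls-3 had 826 normalized counts in wild type no auxin replicate 1, below the other 3 libraries of the group by a gap of 0.849 of the range. T05A12.4 had 2588 in wild type auxin replicate 1, above the others by a gap of 0.881 of the range. ZK938.3 had 1.97 in RAGA-1::AID Neuronal auxin replicate 3, which rests on 2 reads, with 0 in the other 3 libraries. The first 2 genes may have been picked for this split, so their place here is no independent sign of it.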

How the results depend on the processing

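Of 892 values of single genes under an alternative, 883 kept their direction where called and their side of the threshold, 7 lost a call and 2 gained one, and no call turned its direction. Of unc-18, unc-119, eyg-1 and ZK938.3, 4 were past the threshold in RAGA-1::AID Somatic auxin against wild type auxin and against RAGA-1::AID Neuronal auxin, and 3 with the filter of 50 normalized counts in 4 libraries, which leaves eyg-1 out. Of all tested genes, 34.3% and 23.2% were past it in these comparisons. Since eyg-1 and ZK938.3 passed the main filter through Somatic libraries alone, their part in these counts is a description. In Somatic auxin against no auxin, 1 gene (unc-119) was past the threshold. This count was 2 with a pseudocount of 4 and 0 with quantile normalization, the compared libraries alone, DESeq2 on recovered reads, replicates 1 and 4 alone and replicates 2 and 3 alone, and it was 0 to 1 when each library was left out. In the auxin response of Somatic minus wild type, 1 gene (unc-119) passed at an adjusted p of 0.05, against 0 at 0.01.

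Counts over all genes moved by more than 1.5 times as follows. Somatic auxin against wild type auxin had 4505, and 1440 and 2811 with 2 replicates each. Neuronal auxin against wild type auxin had 156, and 13 to 480. Somatic auxin against Neuronal auxin had 3054, and 584 to 4814. Somatic auxin against no auxin had 4680, and 1607 and 2816. Neuronal auxin against no auxin had 58, and 8 to 231. The Somatic difference of responses had 2206, and 241 to 3902, and the Neuronal one 2, and 0 to 21.

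With the replicate number as a block, the 4, 0, 4, 1 and 0 genes past the threshold in the first 5 of these comparisons were 4, 0, 4, 1 and 0, and the block moved no single gene across it. These counts again take in eyg-1 and ZK938.3, whose part is a description. With the block, Neuronal auxin against wild type auxin had 433 genes of all and Neuronal auxin against no auxin 231. Of 60 pairs of libraries with the same number, 46 had deviations correlated above 0.1 (lowest -0.07, median 0.15), and a library correlated best with its own number in 93 of 120 cases. This is a hint from the data that the numbers share something, but not every pair passed 0.1 and the labels do not say that a number marks a shared day, so the fit without the block was kept. At 0 to 5 reads a library, levels of eyg-1 and ZK938.3 outside the Somatic strain cannot be ranked.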

Other observations

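Of 9492 genes with a wild type mean of at least 50 normalized counts, 3 had both wild type libraries numbered 1 at least 2-fold outside all 6 other wild type libraries. One is cls-3. The cytochrome P450 gene cyp-14A3 had 3.12 and 3.39 normalized counts in wild type number 1, against 14.3 to 176 in wild type numbers 2 to 4, and 3.98 to 107 in the AID libraries. The gene dod-21, known from its regulation by the insulin pathway factor DAF-16, had 155 and 185 in wild type number 1, against 0 to 71.7 in the others, and 0 to 115 in the AID libraries. T05A12.4, at 1.72-fold, lies just outside this limit.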
